A study of Mus musculus with 8 samples.

Results

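Cadherins and non-clustered protocadherins are the genes whose symbols are Cdh or Pcdh followed by a number (with or without a final x). The deposited count files hold 35 of them among 55341 gene symbols. The clustered Pcdha, Pcdhb and Pcdhg genes were left out because their bodies overlap. The study measured nuclear RNA of sorted cortical GABAergic neurons, the inhibitory neurons of the cortex, in juvenile mice, with 1 library per mouse. All mice carried a reporter that Cre recombination turns on in GABAergic neurons and that gives their nuclei a fluorescent protein, and in all of them the mother had been treated with propylthiouracil (PTU), a blocker of thyroid hormone synthesis, during gestation. Mice 9 to 12 (n = 4) are the hypothyroid group, PTU. Mice 13 to 16 (n = 4) form the group PTU+TH, likewise hypothyroid and injected with thyroid hormone (TH) intraperitoneally 24 h before the brain was collected. The labels give neither the Cre line, the strain, the sex, the litter nor the age in days, and there is no group of euthyroid mice among the 8 samples.

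Cadherins are calcium-dependent adhesion proteins that hold neighbouring cells together through repeated extracellular domains. Classical cadherins of type I and type II bind catenins through the cytoplasmic tail and so link the membrane to actin, and different neurons carry different sets of them at their synapses. The non-clustered delta protocadherins adhere more weakly, fall into the delta-1 and delta-2 groups by their tails, and are known for roles in axon growth, dendrite arbors and the sorting of cells. Many of these genes have very long introns, so that in nuclear RNA, which is rich in unspliced transcript, gene body length can weigh on their counts.

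Library totals lay between 21762810 and 29084071 counts. The GABAergic markers Gad1 and Gad2 averaged 471 ± 51.7 and 427 ± 25.9 CPM (the usual depth-scaled count, here over the TMM-scaled library total) in PTU and 422 ± 22.3 and 458 ± 24.3 in PTU+TH (SD, n = 4 each). Of 7 pan-GABAergic markers Dlx1 was listed at 0, which is no measure of its expression, since its whole body lies inside other annotated genes. Of the 6 tested, 2 had positive and 4 negative log2 fold changes (median -0.10), with 0 called. Dlx6os1, the 1 at an unadjusted edgeR p under 0.05, was at 204.0 to 275.2 CPM in PTU and 188.4 to 196.3 CPM in PTU+TH (adjusted p = 0.203). The TH-responsive genes Hr, Klf9 and Dbp were each called higher in PTU+TH. Summed over 8 excitatory neuron markers the level was 276.9 to 319.5 CPM in PTU and 247.4 to 330.7 in PTU+TH, with 7 positive and 1 negative log2 fold changes and 0 called (0 also at an unadjusted edgeR p under 0.05). Most of that sum was Camk2a, the negative gene, at 187.9 to 261.0 CPM. Slc17a7, the vesicular glutamate transporter of cortical excitatory neurons, was at 50.7, 51.4, 22.8 and 15.8 CPM in PTU mice 9 to 12 and 44.0, 23.9, 57.9 and 27.98 CPM in PTU+TH mice 13 to 16, with wide differences between libraries of a group. Its part in the values of the members was not tested. Among the other cell types, the 7 endothelial markers summed to 171.6 CPM in PTU mouse 10 and 127.5 in PTU+TH mouse 15, against 38.75 to 90.8 in the other libraries. Y-linked counts were 0 in PTU+TH mice 15 and 16 and between 7960 and 11548 in each of the other 6 libraries. P-values measure the spread between these mice.

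Of the 35 members, 28 had enough counts to be tested, and 4 of these (14.3%) passed an adjusted p of 0.05 (edgeR quasi-likelihood), which is what called means below. All 4 were higher in PTU+TH. Of all 17355 genes tested 2.12% were called, 1.49% higher and 0.634% lower. Pcdh11x, Cdh20, Cdh7 and Cdh6 rose in PTU+TH, by log2 fold changes of 0.57 to 0.75. In a sorted bulk sample, fewer cells of a type and less RNA per cell cannot be told apart. The members called lower numbered 0 with edgeR and 1 with DESeq2, and 4 lower members had an unadjusted edgeR p under 0.05 (12.8% of all genes in either direction, and 9 of the 28 members). The 2 groups did not overlap in the 4 called members, Pcdh11x, Cdh20, Cdh7 and Cdh6, and overlapped in the other 24. Of all genes tested, 8.71% had groups that did not overlap. The log2 fold change was positive in 17 tested members and negative in 11, with a median of 0.05, against -0.01 over all genes tested. In the plot of members by library the called genes stand among the middle of the family in abundance, and the 3 most abundant members, Pcdh9, Pcdh15 and Cdh13, overlap broadly between the groups.

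**Figure D1:**
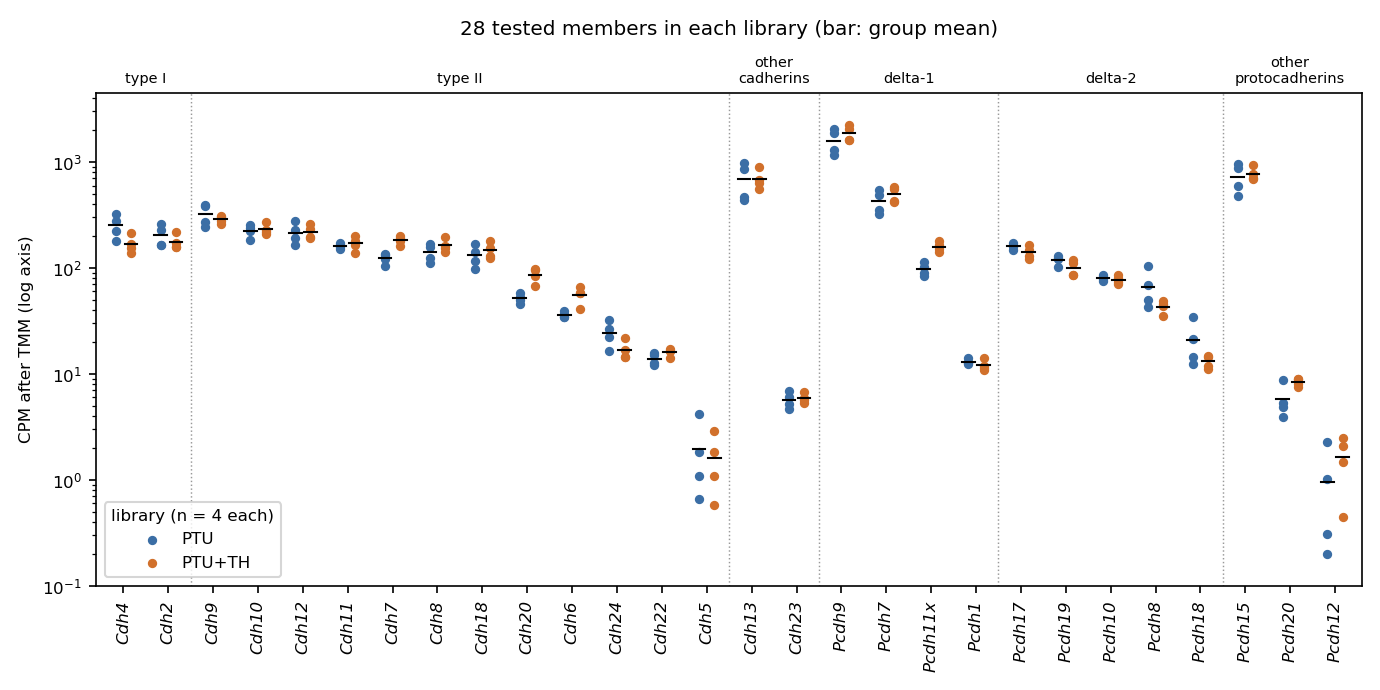
CPM after TMM normalisation (log axis) of the 28 tested members in each of the 4 PTU libraries (blue) and 4 PTU+TH libraries (orange), ordered by subfamily and mean level, with a bar at each group mean. Pcdh9 is highest at 1154 to 2226 CPM, and for Pcdh11x, Cdh20, Cdh7 and Cdh6 all orange points lie above all blue points.

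Type II classical cadherins held 3 of the 4 calls. Of 13 members 12 were tested, 3 were called higher and 0 lower, and 9 of the 12 log2 fold changes were positive (median 0.12). Cdh20 (chromosome 1, 104768529 to 104995481, GRCm38) stood at 49.4, 58.4, 52.9 and 45.7 CPM in PTU mice 9 to 12, in that order, against 98.5, 68.1, 84.9 and 95.1 CPM after TH in mice 13 to 16. Values of other genes follow the same order of mice. All PTU+TH libraries lay above all PTU libraries, with mouse 14 nearest to the PTU range. Cdh20 rose by 0.75 on the log2 scale (SE 0.12, n = 4 each, edgeR adjusted p = 0.00508), from means of 51.6 ± 5.40 to 86.6 ± 13.6 CPM (SD). Within mice 9, 10, 13 and 14 the rise was 0.61 and was not called (edgeR adjusted p = 0.171).

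Cdh7 lies on the same chromosome (109982431 to 110140157), with a gap of 4987 kb between the genes. Its level was 104.3, 122.3, 136.3 and 132.8 CPM in the PTU mice, against 161.2, 192.7, 180.8 and 200.6 CPM after TH. Mouse 9 was lowest and mouse 16 highest, and the groups did not overlap. Cdh7 rose by 0.57 on the log2 scale (SE 0.11, n = 4 each, edgeR adjusted p = 0.0139). Leaving out mouse 16 gave an adjusted p of 0.0583. The 15 other genes tested between Cdh20 and Cdh19 on this chromosome held 0 calls (edgeR adjusted p 0.236 at the lowest), with log2 fold changes of -0.73 to 0.53. Cdh19, a glial cadherin 748.2 kb beyond Cdh7, was too low to test, with 6, 7, 5 and 3 counts in the PTU mice, against 20, 4, 31 and 11 after TH.

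Cdh6 (chromosome 15, 13028701 to 13173675) was at 36.6, 39.1, 34.7 and 34.1 CPM in the PTU mice, against 57.8, 41.3, 65.8 and 57.8 CPM after TH. The PTU libraries were close together, and mouse 14 was again the PTU+TH library nearest to them. Cdh6 rose by 0.62 on the log2 scale (SE 0.13, n = 4 each, edgeR adjusted p = 0.0227). Cdh6 lost its call without any of PTU mice 11 and 12 and PTU+TH mice 13, 15 and 16 (adjusted p 0.0557 to 0.0873). It shares a stretch of chromosome 15 with Cdh9, Cdh10, Cdh12 and Cdh18, none of which was called (edgeR adjusted p 0.749 to 0.971).

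RefSeq promoter sequences (GRCm38.p6) were at hand for 22 of the 35 members and 3 of the 4 called ones. The 250 bases before the start are shown for Cdh20 and Cdh6, as 2 members that were higher in the same libraries, and whose windows hold no annotated exon. The Cdh20 window is chr1:104768270-104768519 on the plus strand and the Cdh6 window chr15:13173676-13173925 on the minus strand, each written 5′ to 3′, with matches on either strand in capitals. The capitals mark AGGTCA for a nuclear receptor, GGGCGG for the GC box, TATAAA for the TATA box and CACGTG for an E-box. Further searches, not marked, were the DR4 repeat (2 copies of AGGTCA with 4 bases between), the general E-box CANNTG, which includes CACGTG, and the CRE site TGACGTCA.
Cdh20: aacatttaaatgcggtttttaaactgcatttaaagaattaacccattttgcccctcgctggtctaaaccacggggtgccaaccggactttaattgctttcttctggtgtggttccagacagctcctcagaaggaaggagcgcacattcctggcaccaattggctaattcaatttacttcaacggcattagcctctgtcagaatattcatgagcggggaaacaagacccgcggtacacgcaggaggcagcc
Cdh6: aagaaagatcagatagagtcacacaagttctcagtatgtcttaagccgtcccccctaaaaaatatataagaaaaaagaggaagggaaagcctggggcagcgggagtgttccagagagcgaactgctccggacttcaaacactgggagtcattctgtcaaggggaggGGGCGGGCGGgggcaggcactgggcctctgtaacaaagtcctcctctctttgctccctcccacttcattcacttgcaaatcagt
AGGTCA is the half-site that thyroid hormone receptors bind. Matches to it numbered 0 in both windows and in the 3 windows of Cdh7, and 14.0% of 32851 promoter windows of this length hold it. GGGCGG, a GC box, matched 2 times in overlap in Cdh6 and is found in 32.7% of the windows. TATAAA and CACGTG matched 0 times in both windows and are found in 12.4% and 6.02%. CANNTG matched 1 time in each of the 2 windows and is found in 66.2%. The DR4 repeat and the CRE site matched 0 times in both and are found in 0.0152% and 1.55%. These are matches of letters in a short window and say nothing of binding elsewhere.

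The 8 other type II cadherins with at least 10 CPM were not called. Cdh9, known for its part in synapses of hippocampal mossy fibres, was the most abundant of the type at 243.7, 273.4, 391.9 and 385.9 CPM in the PTU mice, against 279.5, 311.1, 260.2 and 300.9 CPM after TH. The PTU libraries fell on both sides of the PTU+TH range (log2 fold change -0.17, edgeR adjusted p = 0.749). Cdh10, Cdh11, Cdh12, Cdh8 and Cdh18 had means between 131.5 and 224.2 CPM in PTU and between 146.6 and 232.5 CPM in PTU+TH, with log2 fold changes of 0.04 to 0.22 (edgeR adjusted p 0.595 to 0.971). Of the Cdh12 body 53.4% is free of other annotated genes, which makes its counts less certain. Cdh22 was at 13.9 ± 1.79 and 16.0 ± 1.37 CPM (SD, n = 4 each), with a log2 fold change of 0.20.

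Cdh24, a short gene of 10.1 kb, was at 26.3, 32.3, 16.6 and 22.5 CPM in the PTU mice, against 21.9, 16.6, 14.4 and 14.4 CPM after TH. The groups overlapped, and Cdh24 missed the threshold (edgeR adjusted p = 0.239, log2 fold change -0.54, SE 0.20). With the sets of mice 9, 10, 13, 14 and 11, 12, 15, 16 as a covariate its adjusted p was 0.0486. Cdh5, VE-cadherin of endothelial junctions, was at 1.82, 4.22, 1.09 and 0.66 CPM in the PTU mice, against 2.87, 0.58, 1.82 and 1.10 CPM after TH. Its highest library, mouse 10, was also the highest in the summed endothelial markers (171.6 CPM). Mouse 13, the next for Cdh5, had 90.8 CPM of these markers, and mouse 15, the second in the markers with 127.5 CPM, had 1.82 CPM of Cdh5. The part of endothelial RNA in the Cdh5 values was not tested.

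The delta-1 protocadherins were Pcdh9, Pcdh7, Pcdh11x and Pcdh1, all tested, and 1 was called higher. Pcdh11x (chromosome X, 120290259 to 120910619) had the smallest adjusted p of all members. It stood at 83.1, 89.6, 114.6 and 102.3 CPM in the PTU mice, against 142.1, 151.4, 165.0 and 179.4 CPM after TH, and the groups did not overlap. Its log2 fold change was 0.71 (SE 0.11, n = 4 each, edgeR adjusted p = 0.00502), from means of 97.4 ± 14.0 to 159.5 ± 16.3 CPM (SD). Pcdh11x is X-linked, and the 2 libraries without Y-linked counts, mice 15 and 16, had its highest levels. In the 6 libraries with Y-linked counts the log2 fold change was 0.59 (edgeR adjusted p = 0.135), where 0.318% of all genes tested were called.

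Those 6 libraries called 0 members in all with edgeR, while 8 of 28 had an unadjusted p under 0.05, as did 8.52% of all genes tested there. Cdh20, Cdh7 and Cdh6 had log2 fold changes of 0.69, 0.52 and 0.46 there (adjusted p = 0.129, 0.215 and 0.336). The fit held 2 PTU+TH libraries.

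**Figure D2:**
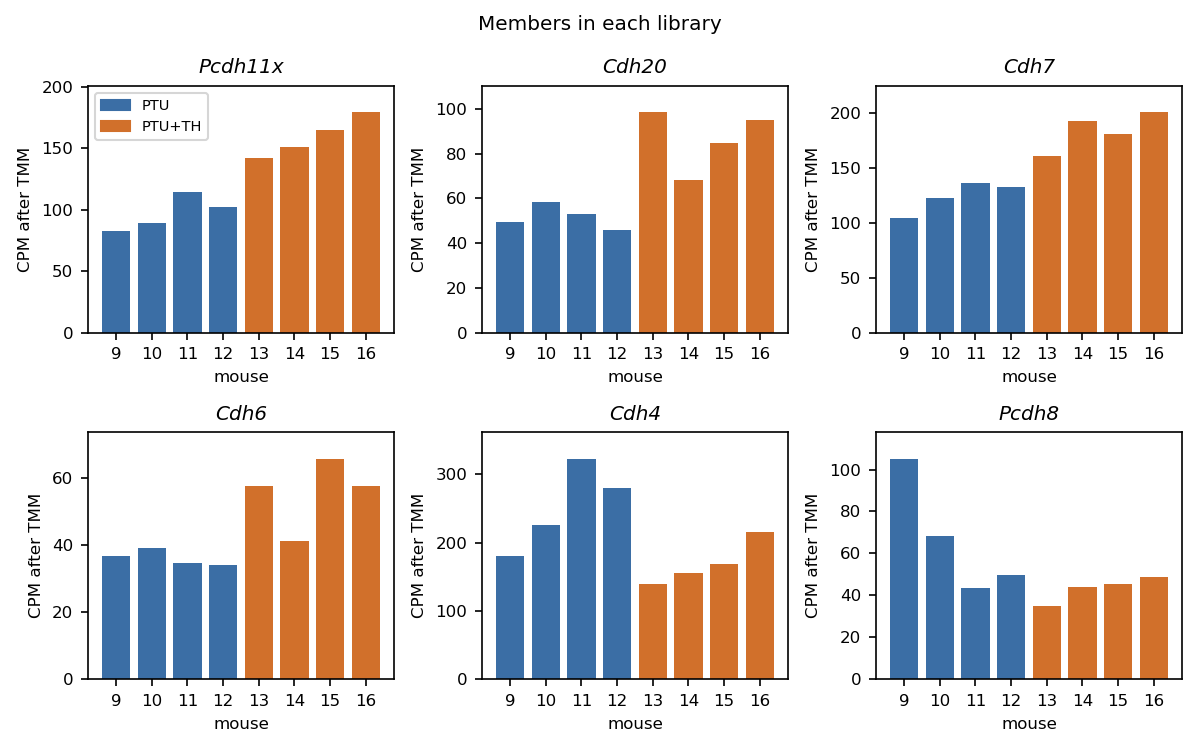
CPM after TMM normalisation (linear axis from 0) of 6 members in each mouse, with PTU in blue and PTU+TH in orange. Pcdh11x, Cdh20, Cdh7 and Cdh6 are higher in every PTU+TH library than in every PTU library, while Cdh4 and Pcdh8 overlap between the groups.

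Pcdh9 was the most abundant member, at 1154, 1288, 2029 and 1860 CPM in the PTU mice, against 1619, 1606, 2060 and 2226 CPM after TH. Its body of 877.3 kb holds 1.97 CPM per kb, and per kb of annotated exon it was the highest of the family (255.1 CPM per kb). The log2 fold change was 0.25 (SE 0.21, edgeR adjusted p = 0.73), and the spread within PTU exceeded the difference between the group means. Pcdh7 also overlapped between the groups, with 326.0, 352.3, 545.8 and 490.5 CPM in the PTU mice, against 425.2, 422.2, 560.2 and 587.5 CPM after TH (log2 fold change 0.22, edgeR adjusted p = 0.713). Pcdh1 was low, at 13.0 ± 0.79 and 12.1 ± 1.39 CPM (SD, n = 4 each).

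Type I classical cadherins were represented by Cdh2 (N-cadherin) and Cdh4 (R-cadherin). Cdh4 stood at 180.6, 225.7, 322.5 and 279.3 CPM in the PTU mice, against 139.9, 155.9, 168.1 and 216.0 CPM after TH. Only PTU+TH mouse 16 reached into the PTU range, above PTU mouse 9. The log2 fold change was -0.57 (SE 0.18, n = 4 each) and was not called (edgeR adjusted p = 0.157). Cdh4 was called lower with DESeq2 (0.0479), with the correction for gene body length (0.000436), with the sets of mice as a covariate (0.0114), without PTU mouse 9 (0.027) and within mice 11, 12, 15 and 16 (0.00279). Within mice 9, 10, 13 and 14 its log2 fold change was -0.47 and within mice 11, 12, 15 and 16 it was -0.64. Cdh2 had means of 204.4 ± 46.1 and 177.4 ± 27.8 CPM (SD, n = 4 each) and a log2 fold change of -0.20 (edgeR adjusted p = 0.68).

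The 5 delta-2 protocadherins all had negative log2 fold changes, and 0 were called (edgeR adjusted p 0.315 to 0.919), while 2 had an unadjusted p under 0.05. Pcdh8, also known as Arcadlin, is a short gene of 4.54 kb that activity induces in neurons. Its level was 105.1, 68.5, 43.2 and 49.6 CPM in the PTU mice, against 34.9, 44.1, 45.2 and 48.8 CPM after TH. PTU mice 9 and 10 were high and the other 6 libraries lay between 34.9 and 49.6 CPM. Pcdh18 showed the same libraries high, with 34.6, 21.3, 12.5 and 14.5 CPM in the PTU mice, against 11.1, 14.5, 14.9 and 11.9 CPM after TH. The log2 fold changes were -0.63 (SE 0.25) and -0.66 (SE 0.28). Within mice 9, 10, 13 and 14 they were -1.16 for Pcdh8 and -1.14 for Pcdh18, and within mice 11, 12, 15 and 16 they were 0.03 and -0.005. Without PTU mouse 9 they were -0.31 and -0.29.

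Pcdh19, an X-linked gene whose loss causes epilepsy in girls, was at 119.3 ± 11.7 CPM in PTU and 100.1 ± 16.8 in PTU+TH (SD, n = 4 each), a log2 fold change of -0.25 (edgeR adjusted p = 0.409). Pcdh17, a protocadherin of corticostriatal synapses, was at 160.2 ± 11.3 and 141.8 ± 19.7 CPM, and Pcdh10 at 80.2 ± 4.36 and 77.8 ± 6.79 CPM (SD, n = 4 each), with log2 fold changes of -0.18 and -0.04. Pcdh10 had the narrowest range of the family over the 8 libraries, with a highest library 1.22 times the lowest. Its body is 66.7% and that of Pcdh8 69.0% free of other genes.

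Among the remaining genes, Cdh13 and Pcdh15 were abundant. Cdh13 (T-cadherin, which is anchored by a lipid and lacks a cytoplasmic tail) stood at 439.5, 468.8, 980.1 and 856.2 CPM in the PTU mice, against 555.2, 637.8, 682.4 and 899.0 CPM after TH. PTU mice 9 and 10 were lowest and PTU mouse 11 highest, and the highest library was 2.23 times the lowest. The log2 fold change was 0.02 (SE 0.26, edgeR adjusted p = 0.993), positive between mice 9, 10 and 13, 14 (0.39 as a difference of mean log2 CPM) and negative between mice 11, 12 and 15, 16 (-0.23). Pcdh15, the partner of Cdh23 in the tip links of hair cells, was at 475.2, 589.3, 966.3 and 880.6 CPM in the PTU mice, against 703.0, 698.0, 771.1 and 944.8 CPM after TH (edgeR adjusted p = 0.927, log2 fold change 0.10, SE 0.21). Cdh23 itself was low, at 5.68 ± 0.96 and 5.90 ± 0.60 CPM (SD, n = 4 each).

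Pcdh20 was at 8.82, 5.31, 4.90 and 3.94 CPM in the PTU mice, against 7.97, 7.49, 8.90 and 8.99 CPM after TH. Only PTU mouse 9 reached the PTU+TH range (edgeR adjusted p = 0.332, log2 fold change 0.53, SE 0.23), and without it Pcdh20 was called higher (log2 fold change 0.825, adjusted p = 0.0271). Pcdh12, a protocadherin of endothelium, had 28, 60, 4 and 7 counts in the PTU mice, against 35, 13, 55 and 44 after TH. As with Cdh5, its highest PTU library was mouse 10, and its highest PTU+TH library was mouse 15, at 171.6 and 127.5 CPM of the summed endothelial markers. Mouse 16, with 44 counts of Pcdh12, had 54.9 CPM of these markers, and mouse 13, with 35 counts, had 90.8 CPM. The part of endothelial RNA in these values was not tested.

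The 7 members that were not tested had too few counts. Cdh1 (E-cadherin), Cdh3 (P-cadherin), Cdh16, Cdh17, Cdh19 and Cdh26 had at most 31 counts in any library. Cdh17, a cadherin of intestine, had 7, 4, 5 and 7 counts in the PTU mice, against 1, 2, 2 and 2 after TH, which is too few for a test. Cdh15 (M-cadherin of muscle) was listed at 0 in all 8 libraries. Its whole body lies inside the gene model Gm20388, and 99.5% of the 1363 protein-coding genes with no base of their own were listed at 0, against 21.4% of genes with a free body. The 0 of Cdh15 is therefore no measure of its expression.

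Libraries of 1 group differed in the level of long genes. For each library the difference of log2 CPM from the mean over the 8 libraries was taken per gene. Over the 601 tested genes with a body of more than 300 kb its median was negative in PTU mice 9 and 10 (-0.41, -0.20) and positive in PTU mice 11 and 12 (0.32, 0.19). It was likewise negative in PTU+TH mice 13 and 14 (-0.11, -0.10), and positive in mice 15 and 16 (0.07, 0.26). The 10 members of that length, which are Cdh4, Cdh8, Cdh12, Cdh13, Cdh18, Cdh23, Pcdh7, Pcdh9, Pcdh11x and Pcdh15, had medians of -0.48 and -0.30, then 0.29 and 0.09, in PTU and of -0.08 and -0.08, then 0.15 and 0.38, in PTU+TH. The labels give no batch, and the origin of the split between mouse numbers was not tested.

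**Figure D3:**
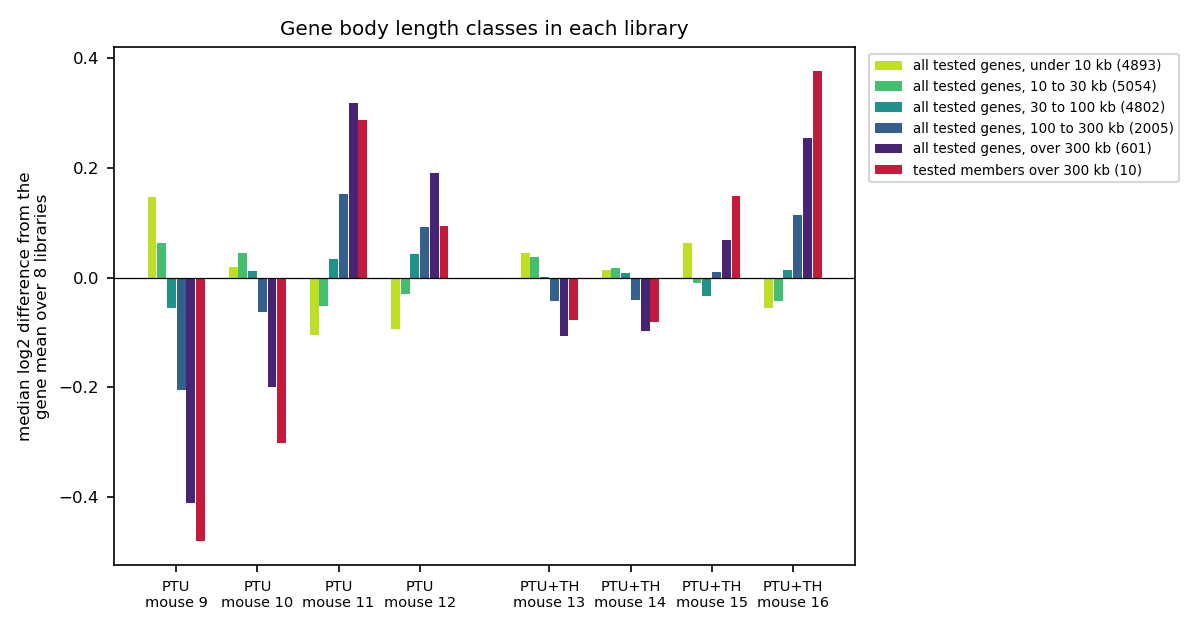
Median difference of log2 CPM from the gene's mean over the 8 libraries (vertical axis) in each library, for all tested genes in 5 classes of gene body length and for the 10 tested members over 300 kb (red). The longest genes are lowest in PTU mice 9 and 10 and highest in PTU mouse 11 and PTU+TH mouse 16, and the long members go with them.

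All 10 members over 300 kb were lower in both PTU mice 9 and 10 than in both mice 11 and 12, as were 84.9% of all genes of that length and 27.7% of all genes tested. In PTU+TH, 9 of the 10 were lower in both mice 13 and 14 than in both mice 15 and 16, against 67.6% of genes of that length. Of the 9 tested members up to 100 kb, 0 were lower in PTU mice 9 and 10 and 6 were higher than in mice 11 and 12, where 31.7% of all genes of that length were higher. In PTU+TH, 6 of the 9 short members were lower in both mice 13 and 14 than in both mice 15 and 16, against 17.9% of all genes of that length. Read against genes of their own length, the long members' counts of 10 of 10 and 9 of 10 stand beside 84.9% and 67.6%.

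Between the groups, the median log2 fold change was 0.02 over all tested genes above 300 kb and 0.004 over those of 100 to 300 kb. Members above 300 kb had a median of 0.13, with 1 of 10 called (10.0%, where 2.33% of genes of that length were called). Members of 100 to 300 kb had a median of 0.09, with 3 of 9 called (33.3%, against 4.39%), and those up to 100 kb had a median of -0.18, with 0 of 9 called (against 1.80%). Of these 9, 4 had an unadjusted edgeR p under 0.05, as did 12.0% of genes of that length. Across the 28 tested members Spearman's rho between body length and log2 fold change was 0.33, against -0.01 over the 17355 genes tested, where the genes share libraries and depth.

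**Figure D4:**
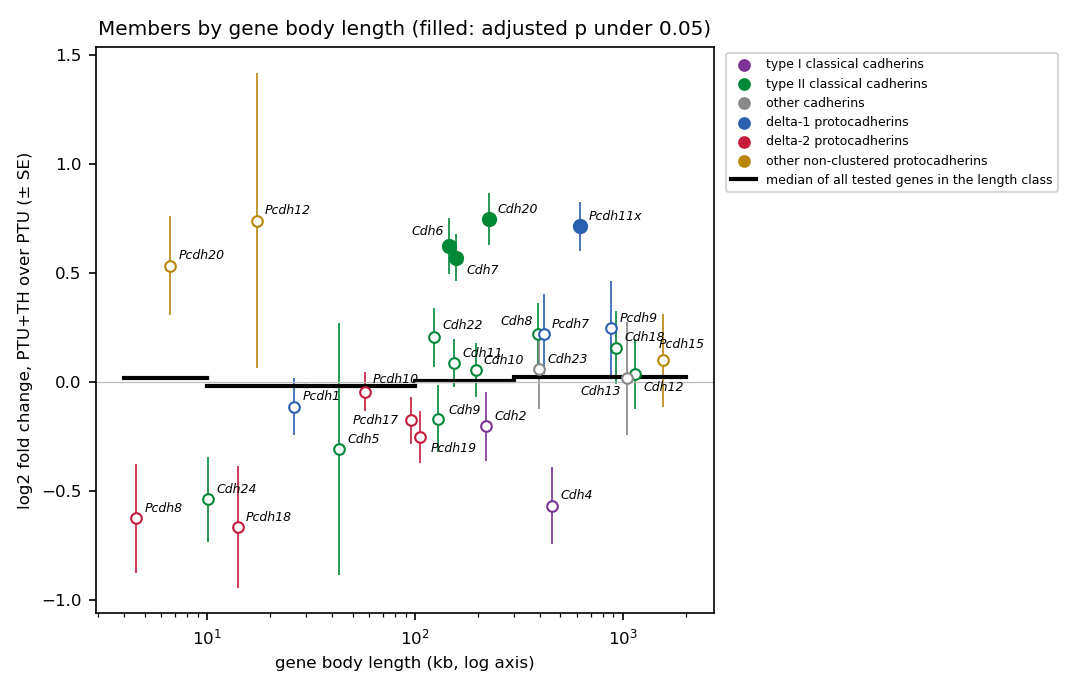
Log2 fold change of PTU+TH over PTU with its SE for the 28 tested members against gene body length (log axis), coloured by subfamily and filled where the adjusted p was under 0.05. Black lines give the median of all tested genes in each length class, which stay between -0.02 and 0.02, and the 4 called members lie at 0.57 to 0.75 with bodies of 145.0 to 620.4 kb.

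With a smooth correction for gene body length in each library, 5 members were called, namely the same 4 and Cdh4 (4.03% of all genes were). The log2 fold changes were 0.65 for Pcdh11x, 0.70 for Cdh20, 0.55 for Cdh7 and 0.59 for Cdh6 (edgeR adjusted p = 0.000536, 0.0175, 0.00055 and 0.0289). Within the mice 9, 10, 13 and 14 these were 0.75, 0.61, 0.63 and 0.37, and within the mice 11, 12, 15 and 16 they were 0.68, 0.88, 0.51 and 0.86. In the first set Pcdh11x and Cdh7 were called (1.34% of all genes were). In the other set all 4 were, with Cdh4, Cdh9, Pcdh12 and Pcdh20 (10.6% of all genes were). In that other set mice 11 and 12 had 7960 and 9624 Y-linked counts, and mice 15 and 16 had 0. Group and presence of Y-linked counts cannot be told apart within it. With the sets of mice as a covariate 6 members were called (3.70% of all genes were), the same 4 higher and Cdh4 and Cdh24 lower. DESeq2 called these 4 and Cdh4 (4.48% of all genes). The same 4 were called with RLE size factors (2.12%), upper-quartile scaling (2.18%), limma voom (2.03%), no filter on low counts (1.52%) and a filter of 1 CPM (2.51%). Without PTU mouse 9, 10, 11 or 12 the members called numbered 6, 4, 3 and 3, beside 2.84%, 1.41%, 1.66% and 1.32% of all genes. Without PTU+TH mouse 13, 14, 15 or 16 they numbered 3, 4, 3 and 2, beside 1.35%, 1.28%, 1.03% and 1.18%. In the plot of the called members under each alternative all fold changes are positive.

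**Figure D5:**
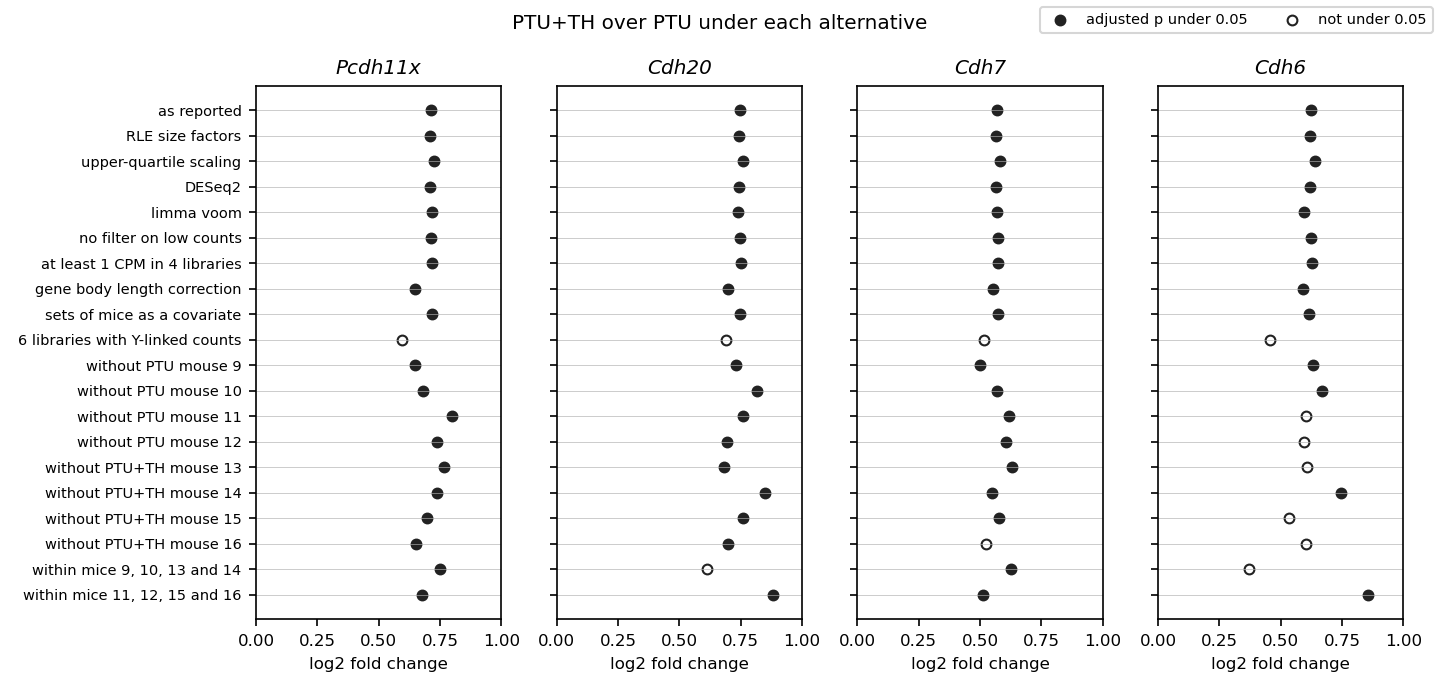
Log2 fold change of PTU+TH over PTU for the 4 called members as reported and under the 19 alternatives, filled where the adjusted p was under 0.05. All values lie between 0.37 and 0.88, and the open points are the 6 libraries with Y-linked counts in all 4 genes, the fit without mouse 16 for Cdh7, the fit within mice 9, 10, 13 and 14 for Cdh20, and 6 further fits for Cdh6.

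Compared per length, the order of levels changed. Pcdh8, with a body made of exon alone, had the highest level per kb of body (12.1 CPM per kb), followed by Cdh9 (2.38), Cdh24 (2.04) and Pcdh9 (1.97). Per kb of annotated exon Pcdh9 led with 255.1 CPM per kb, followed by Cdh9 (86.4), Cdh13 (61.4) and Pcdh7 (43.7), while Pcdh8 was at 12.1. The called members were at 17.2 (Cdh20), 15.3 (Cdh7), 9.21 (Pcdh11x) and 5.09 (Cdh6) CPM per kb of exon. Both scales are given because the counting of intron reads is not stated.

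The partners of cadherins were taken from 4 lists, namely catenins and junction linkers, the WAVE complex that regulates actin below some protocadherins, the Fat, Dachsous, Celsr and calsyntenin relatives, and the proteases that shed cadherins. All 42 genes were tested and 3 (7.14%) were called, 2 higher and 1 lower, beside 2.12% of all genes. At an unadjusted edgeR p under 0.05 there were 4 of the 42, beside 12.8% of all genes. The median log2 fold change over the 42 was -0.02. Of the catenin list 1 of 12 was called lower, of the WAVE list 0 of 9 in either direction (0 also at an unadjusted edgeR p under 0.05), of the relatives 1 of 13 higher and of the proteases 1 of 8 higher.

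Fat3, a giant cadherin that shapes the dendrites of amacrine cells, was at 134.7, 172.7, 215.9 and 189.8 CPM in the PTU mice, against 260.3, 265.1, 333.9 and 372.4 CPM after TH. The groups did not overlap (edgeR adjusted p = 0.0198, log2 fold change 0.79, SE 0.16). Adam10, the protease that cuts the N-cadherin ectodomain, was at 70.1, 75.4, 69.4 and 65.6 CPM in the PTU mice, against 87.1, 86.0, 96.1 and 93.2 CPM after TH (edgeR adjusted p = 0.0345, log2 fold change 0.37, SE 0.08). Arvcf, a catenin of the p120 family that binds the cadherin tail near the membrane, fell from 97.7, 106.4, 88.7 and 99.2 CPM to 68.6, 74.8, 63.5 and 74.8 CPM (log2 fold change -0.48, SE 0.09, edgeR adjusted p = 0.0136). All 8 Arvcf values separate by group, as do those of Adam10. Fat3 and Arvcf were each called in 15 of 19 alternatives and Adam10 in 11.

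The members as a whole took between 0.504% and 0.676% of the counts of a library in PTU and between 0.565% and 0.706% in PTU+TH, with overlap. Among markers of the GABAergic classes, 1 of 5 tested PV markers was called higher (Syt2), 1 of 7 SST markers lower (Calb1), 1 of 7 VIP markers lower (Htr3a) and 0 of 6 LAMP5 markers in either direction. At an unadjusted edgeR p under 0.05 there were 3 PV markers higher and 0 lower, 1 SST marker higher and 2 lower, 0 VIP markers higher and 3 lower, and 0 LAMP5 markers higher and 1 lower. Over all genes tested 2.12% were called and 12.8% had such an unadjusted p. Log2 fold changes were positive for 4 of the PV, 2 of the SST, 1 of the VIP and 2 of the LAMP5 markers. Oligodendrocyte markers summed to 89.7 to 108.0 CPM in PTU and to 113.8, 85.2, 175.2 and 108.3 CPM in PTU+TH mice 13 to 16, and 5 of the 6 tested had positive log2 fold changes with 0 called (1 at an unadjusted edgeR p under 0.05). Microglial markers summed to 50.4 to 71.2 CPM in PTU and 60.8 to 80.6 CPM in PTU+TH. P2ry12 was listed at 0, with its whole body inside other annotated genes, so its 0 is no measure of expression. The same holds for Cox6a2 (PV), Gfap (astrocytes), Gpr17 and C1ql1 (oligodendrocyte precursors). All 6 tested microglial markers had positive log2 fold changes (median 0.56) with 0 called (1 at an unadjusted edgeR p under 0.05). Astrocyte markers summed to 127.5 to 247.0 CPM in PTU and 130.4 to 373.6 CPM in PTU+TH, and those of oligodendrocyte precursors to 8.27 to 24.0 and 10.4 to 33.0 CPM. Cdh20 in PTU+TH mice 13 to 16 was at 98.5, 68.1, 84.9 and 95.1 CPM, lowest in mouse 14 as were the oligodendrocyte and astrocyte markers, and highest in mouse 13. Cdh6 (57.8, 41.3, 65.8 and 57.8 CPM) was lowest in mouse 14 and highest in mouse 15, as were both marker sums (astrocytes 261.6, 130.4, 373.6 and 198.7 CPM). In PTU mice 9 to 12 the astrocyte markers summed to 232.7, 247.0, 182.4 and 127.5 CPM. Against PTU+TH mouse 14 this sum was higher in PTU mice 9 to 11 and lower in mouse 12. The oligodendrocyte sum was higher in all PTU mice than in mouse 14, and Cdh20 and Cdh6 were lower in all of them. Cdh7 and Pcdh11x were lowest in mouse 13 and highest in mouse 16. Cdh19 had its 31 counts in mouse 15. The part of cell type makeup in the rises of Cdh20, Cdh7, Cdh6 and Pcdh11x was not tested.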

How the data were processed

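The authors deposited raw counts of reads per gene symbol, with 1 file per library. Per the submitters' processing notes, Bowtie2 2.5.3 and build mm10 (GRCm38) were used, and the counting program, annotation, strand and treatment of introns are not given in the sources used here. Gene bodies and exons are from GENCODE M21 (GRCm38), which held all 35 members. The test was the robust quasi-likelihood test of edgeR 4.0.16 (R 4.3.3) after TMM and filterByExpr, with group as the only term. It is two-sided, and Benjamini-Hochberg adjustment covered 17355 genes. SE is the log2 fold change divided by the root of the F statistic. Library deviations used log2 of CPM + 0.5. The chi-square statistic per degree of freedom was 8.38 to 72.6 over the 12 pairs of libraries of a group, so none was a copy. The fit was tested on simulated data.

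Alternatives were RLE and upper-quartile scaling, DESeq2 1.42.0, limma voom 3.58.1, no filter and a filter of 1 CPM, a lowess correction on gene body length, sets of mice as a covariate, the 6 libraries with Y-linked counts, each library left out, and, added after the data were seen, fits within each set. Members and lists were chosen with earlier results of these data known. Named with values in every library were called members, uncalled members whose groups do not overlap and the 3 most abundant members. Values for the remaining members were added to account for the family.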

Additional observations from a re-analysis of the deposited data

Results flagged for a closer look

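A library far from the other 3 of its group was sought in 56 sets of 4 values, the 28 tested members in both groups, and 0 were found, where chance gives about 5% of sets.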

How the results depend on the processing

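No paired analysis was possible because PTU and PTU+TH share no mouse number. Against 368 genes called, the count was 748 with DESeq2 (367 shared), 700 with the length correction (360 shared), 642 with sets of mice as a covariate (366 shared), 58 in the 6 libraries with Y-linked counts (55 shared), 238 within mice 9, 10, 13 and 14 and 1850 within mice 11, 12, 15 and 16. It ran from 182 (without PTU+TH mouse 15) to 499 (without PTU mouse 9) when a library was left out, with 209 to 238 without PTU mouse 12 or PTU+TH mouse 13, 14 or 16. Against 4 members called, the count was 0, 2 and 8 in the last 3 of these fits and 2 (without PTU+TH mouse 16) to 6 (without PTU mouse 9) when a library was left out. Against 3 related genes it was 0 in the 6 libraries, 7 within mice 11, 12, 15 and 16 and 0 (without PTU+TH mouse 15) to 3 when a library was left out, with 1 without PTU mouse 10, PTU+TH mouse 13 or PTU+TH mouse 16. The 6 libraries and the fits within sets hold fewer mice, yet counts rose within mice 11, 12, 15 and 16, and the cause was not tested. In that set the PTU libraries had Y-linked counts and the PTU+TH libraries had none. The median log2 fold change of the members moved from 0.055 to between -0.074 (6 libraries) and 0.175 (without PTU mouse 11), and was also negative without PTU mouse 9 (-0.03) or PTU+TH mouse 16 (-0.022).

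Of 532 values of single members under alternatives, 497 kept their direction, and the 4 called members did so throughout. The 35 that did not belong to 14 members that were not called. In the 6 libraries these were Pcdh7 (-0.015), Pcdh12 (-0.015), Cdh18 (-0.052), Cdh11 (-0.081), Pcdh15 (-0.054), Cdh10 (-0.066), Cdh12 (-0.149) and Cdh13 (-0.20). With the length correction they were Cdh12 (-0.033) and Cdh13 (-0.002). Within mice 9, 10, 13 and 14 they were Cdh9 (0.18), Pcdh12 (-0.797) and Cdh11 (-0.032). Within mice 11, 12, 15 and 16 they were Pcdh8 (0.027), Pcdh1 (0.025), Cdh5 (0.76), Pcdh10 (0.025), Pcdh15 (-0.097), Cdh23 (-0.087), Cdh12 (-0.026) and Cdh13 (-0.206). When a library was left out the log2 fold change ran from -0.762 to 0.405 for Cdh5, -0.098 to 0.001 for Pcdh10, -0.054 to 0.266 for Pcdh15, -0.037 to 0.117 for Cdh10, -0.017 to 0.162 for Cdh23, -0.07 to 0.19 for Cdh12 and -0.14 to 0.24 for Cdh13.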
